A study of Mus musculus with 6 samples.

Results

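The TRIM (tripartite motif) genes were taken as every gene of the deposited expression table whose symbol starts with Trim followed by a digit. This gave 63 of 18268 genes. Transcript levels were given as FPKM, which scales fragments to transcript length and to mapped reads, so that levels can be set side by side between genes. A gene was tested when at least 3 of the 6 samples held at least 1 FPKM, which left 43 TRIM genes among 12072 genes. Of the other 20, 18 were under 1 FPKM in all samples, and Trim30b and Trim34b reached 1 FPKM in some samples but in fewer than 3.

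RNA had been sequenced from colorectal tissue of C57BL/6 mice, which the study describes as adult males. All 6 mice had drunk water with dextran sulfate sodium (DSS) for 7 days, which damages the bowel epithelium and causes colitis. A drug was given by gavage for 6 days. In 3 mice it was berberine (BBR), an alkaloid from plants, and in the other 3 sulfasalazine (SASP), which gut bacteria split to release an aminosalicylate. The labels give colorectal tissue for all samples, but the study's text speaks of rectal samples for its BBR sequencing and of colon samples for its SASP sequencing. If the segments differed, bowel segment and drug cannot be told apart in any difference given here. No healthy or untreated colitis mouse was analysed here, so each difference is between the drugs and has no untreated level beside it. In whole tissue, fewer cells of a type and less RNA per cell cannot be told apart.

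TRIM proteins carry a RING finger, 1 or more B-boxes and a coiled coil, and most are E3 ubiquitin ligases, which attach ubiquitin to other proteins. What follows the coiled coil sets the class, most often a SPRY domain that binds a partner. Many TRIM genes are induced by interferon, and their proteins capture viruses, or switch on or damp the sensors RIG-I, MDA5 and STING and the kinases of NF-κB signalling. Others act in chromatin, in the cytoskeleton, in muscle or in epithelia. In the gut, several are made mainly by epithelial cells.

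Estimated depth was 16400000 to 18200000 reads per sample. BBR mouse 3 stood apart within its group, with correlations across genes of 0.953 and 0.949 to BBR mice 1 and 2, which correlated with each other at 0.987. The correlations of BBR mouse 3 to SASP mice 1, 2 and 3 were 0.92, 0.953 and 0.944. The 7 epithelial markers summed to 4442 to 4968 FPKM in BBR against 4757 to 5855 FPKM in SASP mice, and none was at 0. Of the 7, 2 passed the threshold (Krt18 higher and Vil1 lower in BBR), beside 8.86% of all genes tested. The groups did not overlap in 4 of the 7 (57.1%, beside 37.9% of all genes tested), with BBR below SASP in 3 and above in 1. Krt20 was among the 3, with a log2 difference of -1.18 (limma adjusted p = 0.061). The sums of 7 smooth muscle markers did not overlap, at 2740, 2814 and 6505 FPKM in BBR mice 1, 2 and 3 and 693 to 2183 FPKM in SASP mice, although 0 of the 7 passed the threshold (5 had an unadjusted p under 0.05 in limma). The 7 leukocyte markers summed to 20.0 to 35.7 and 33.5 to 72.7 FPKM, with 0 of 7 past the threshold (4 at an unadjusted p under 0.05). Of all 12072 genes tested, 3837 had an unadjusted p under 0.05 in limma. The part of these cell types in the TRIM values was not tested.

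TRIM genes spanned a wide range of levels. Averaged over the 6 mice, 43 of 63 reached 1 FPKM, 19 reached 10 FPKM and 4 reached 50 FPKM. These 4 were Trim31 (105 FPKM), a ligase that acts on the antiviral adaptor MAVS and the inflammasome protein NLRP3, Trim40 (96.8 FPKM), a gastrointestinal inhibitor of NF-κB, Trim14 (73.7 FPKM), a RING-less adaptor at MAVS, and Trim15 (68.3 FPKM), a focal adhesion protein.

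Between the drugs, 5 of the 43 tested TRIM genes differed at an adjusted p under 0.05 in limma (11.6%), beside 8.86% of all genes tested. Lower in BBR were Trim30a, Trim21, Trim12a and Trim34a, 4 of 43, where 5.04% of all genes were lower. Only Trim62 was higher, 1 of 43, where 3.82% of all genes were higher. On the log2 scale 22 differences were above 0 and 21 below, with a median of 0.03 for the TRIM genes and 0.10 for all genes tested. Over all 12072 genes tested, 7336 differences were above 0 and 4734 below. An unadjusted p under 0.05 in limma was found in 19 of the 43 TRIM genes and in 3837 of the 12072 genes. The groups did not overlap in 19 of 43 (44.2%), with BBR below SASP in 10 and above in 9, beside 37.9% of all genes. Shares this near the background say little about the family as a whole, and the values of single genes follow.

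**Figure D1:**
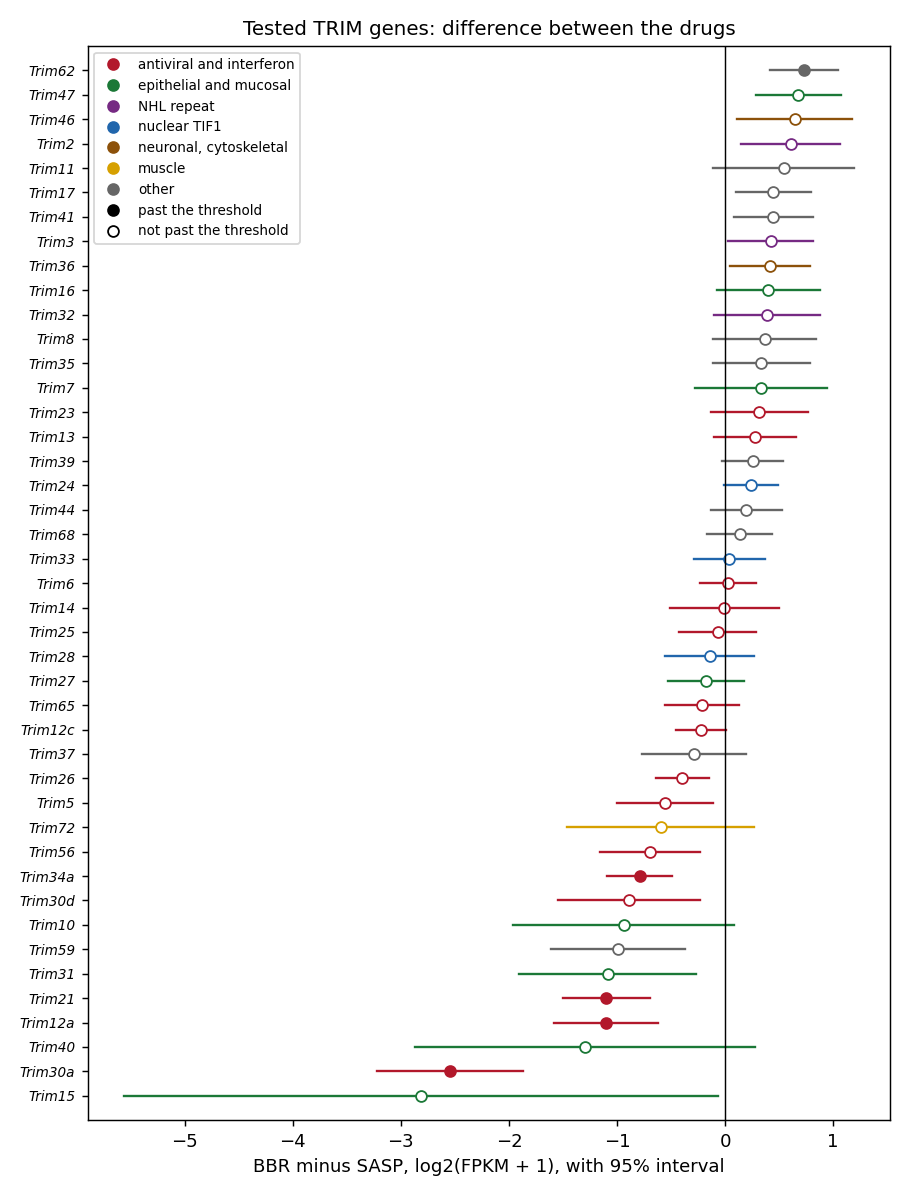
Difference between BBR and SASP mice for each of the 43 tested TRIM genes (rows), as BBR minus SASP on the log2(FPKM + 1) scale (horizontal axis), with its 95% interval from limma as a line and colours for the role groups; filled points passed the threshold. The 4 filled points left of 0 are Trim30a, Trim12a, Trim21 and Trim34a, the 1 filled point right of 0 is Trim62, and the longest intervals belong to Trim15 and Trim40.

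Trim30a (Gene ID 20128) encodes an interferon-inducible protein known to damp NF-κB signalling by the loss of the adaptors TAB2 and TAB3. It had the largest difference among the called TRIM genes. Its levels were 4.31, 2.74 and 5.01 FPKM in BBR mice 1, 2 and 3 and 36.6, 18.34 and 31.65 FPKM in SASP mice 1, 2 and 3. All BBR mice lay far below all SASP mice, and SASP mouse 2 was the lowest of its group. The means were 4.02 ± 1.16 and 28.9 ± 9.44 FPKM (SD, n = 3 each), 7.18 times higher in SASP, and the log2 difference was -2.55 (SE 0.29, 95% interval -3.22 to -1.87, limma adjusted p = 0.00816). The call was held in 12 of 13 alternatives and lost without SASP mouse 3, where the adjusted p was 0.0530.

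The mouse Trim30a promoter is shown because this gene had the largest difference past the threshold and because a core of the interferon response element lies in it. RefSeq (build GRCm38.p6) lists 2 starts for the gene. The 100 bases before the upstream start, chr7:104465194-104465293 on the minus strand, read as follows, with the motif in capitals.
Trim30a, 100 bases before the start: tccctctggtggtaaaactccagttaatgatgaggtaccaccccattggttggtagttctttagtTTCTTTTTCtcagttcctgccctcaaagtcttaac
The motif searched was GAAANNGAA on either strand, and here it reads TTCNNTTTC along the gene, beginning 35 bases before the start. A further match lay 4 bases after the downstream start.

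In Trim12a, Trim34a and Trim21 the same letters began 12 to 14 bases after the start. The windows of 30 bases below, from RefSeq promoters of build GRCm38.p6 and along each gene's strand, show how alike they are. Capitals mark the motif. Trim30d, Trim5 and Trim12c did not pass the threshold and are shown as the near copies of Trim30a and Trim12a.
Trim30a (chr7:104465209-104465238, minus strand): gttctttagtTTCTTTTTCtcagttcctgc
Trim30d (chr7:104507870-104507899, minus strand): gttctttagtTTCTTTTTCtcagttcctgc
Trim12a (chr7:104315465-104315494, minus strand): gagttgtggtTTCTGTTTCatttccagagc
Trim5 (chr7:104288135-104288164, minus strand): gagttgtggtTTCTGTTTCatttccagagc
Trim12c (chr7:104353358-104353387, minus strand): gagttgtggtTTCTGTTTCatttccagctc
Trim34a (chr7:104244458-104244487, plus strand): ggtttggagtTTCAGTTTCttttctctgca
Trim21 (chr7:102565450-102565479, minus strand): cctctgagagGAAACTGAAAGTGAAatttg
The Trim30a and Trim30d windows were identical in 30 of 30 bases, as were those of Trim5 and Trim12a, and Trim12c matched Trim12a in 28 of 30. Trim34a matched Trim12a in 18 of 30. In Trim21 the motif occurred on the gene's own strand, as 2 overlapping copies.

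A promoter of 300 bases, 250 before and 50 after the start, was found in RefSeq for 49 of the 63 TRIM genes. GAAANNGAA was present in 12 of the 49 (24.5%), and in 9.76% of 27025 genes with such a promoter. Among tested TRIM genes, it was present in 4 of 4 called lower in BBR and in 7 of 28 not past the threshold (25.0%). Of 9699 tested genes with a promoter, 8.72% held it. It was present in 1 of 16 untested TRIM genes and not in Trim62. Of 486 genes with a promoter that were lower in BBR, 21.2% held it. TTCNNNGAA, the letters of a STAT site, was in 6 of 49 TRIM promoters (12.2%), in 0 of the 4 called lower in BBR and in 9.55% of all genes. A match of letters is a description. The windows of Trim5, Trim12a and Trim12c are near copies of each other, as are those of Trim30a and Trim30d. These are therefore not independent occurrences in the counts. The 7 that held the motif without passing the threshold were Trim30d, Trim5, Trim12c, Trim26 and Trim25, with differences below 0, and Trim2 and Trim7, with differences of 0.61 and 0.33 above 0.

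Trim21 (20821) encodes the cytosolic antibody receptor, also known as the Ro52 autoantigen, that sends antibody-coated viruses to the proteasome. Its levels were 6.68, 5.58 and 4.29 FPKM in BBR mice 1, 2 and 3 and 11.63, 12.29 and 14.59 FPKM in SASP mice 1, 2 and 3. No BBR mouse reached 7 FPKM and no SASP mouse was under 11 FPKM. It was lower in BBR by 1.10 on the log2 scale (SE 0.17, limma adjusted p = 0.0185), with means of 5.52 ± 1.2 and 12.8 ± 1.55 FPKM (SD, n = 3 each). The call was lost without any 1 of the SASP mice, with adjusted p up to 0.0927.

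Trim12a (76681) and Trim34a (94094) encode relatives of TRIM5, a protein that restricts retroviruses at the capsid. Trim12a was the more abundant of these, at 24.86, 20.62 and 35.11 FPKM in BBR against 58.28, 49.67 and 65.86 FPKM in SASP mice 1, 2 and 3. BBR mouse 3 was the highest of its group, and still below every SASP mouse. The means were 26.9 ± 7.45 and 57.9 ± 8.10 FPKM (SD, n = 3 each), 2.16 times higher in SASP, with a log2 difference of -1.10 (SE 0.20, limma adjusted p = 0.0262). Trim12a was no longer called when BBR mouse 1 or 2 or any 1 of the SASP mice was left out, with adjusted p up to 0.117.

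Trim34a was at 10.21, 9.71 and 9.52 FPKM in BBR against 19.29, 14.97 and 19.18 FPKM in SASP mice 1, 2 and 3. The BBR mice were close together, at 9.81 ± 0.356 FPKM, and all were below the SASP mice, at 17.8 ± 2.46 FPKM (SD, n = 3 each). The log2 difference was -0.79 (SE 0.13, limma adjusted p = 0.0199). The gene was no longer called when BBR mouse 1 or 2 was left out, nor without SASP mouse 1 or 3, with adjusted p up to 0.106. Its longest transcript shared 41.3% of its 50-base windows with Trim34b, so the division of reads between this pair is uncertain. Trim34b itself was at 0.21 to 1.04 FPKM in the 6 mice.

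Trim62 (67525), a regulator of epithelial polarity that also modifies the fungal signalling adaptor CARD9, was the 1 TRIM gene that was higher in BBR. Its levels were 5.80, 5.12 and 4.44 FPKM in BBR against 2.59, 2.66 and 2.79 FPKM in SASP mice 1, 2 and 3. The SASP mice were nearly level, and every BBR mouse lay above them. The means were 5.12 ± 0.680 and 2.68 ± 0.101 FPKM (SD, n = 3 each), 1.91 times higher in BBR, and the log2 difference was 0.73 (SE 0.13, 95% interval 0.41 to 1.04, limma adjusted p = 0.0260). The call was lost with no filter and without any 1 mouse other than BBR mouse 3, with adjusted p up to 0.119.

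**Figure D2:**
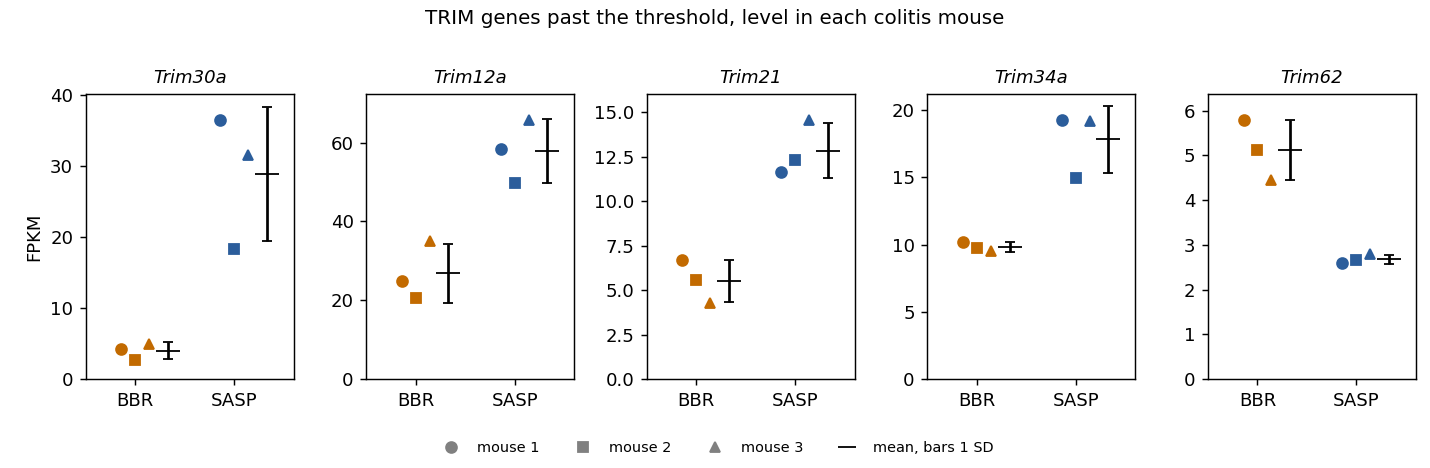
FPKM of the 5 TRIM genes past the threshold (vertical axes, each from 0) in each of the 3 BBR and 3 SASP mice, with the mean and 1 SD as bars beside the points. In Trim30a, Trim12a, Trim21 and Trim34a the BBR points lie below all SASP points, and in Trim62 they lie above.

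Genes known to be induced by interferon were also lower. Of 9 in the table, 8 passed the threshold as lower in BBR and 0 as higher (88.9% lower, beside 5.04% of all genes tested), and the sum of the 9 was 238 to 327 FPKM in BBR against 744 to 1181 FPKM in SASP mice. Irf7, which drives the type I interferon genes, did not pass the threshold, at -1.30 (adjusted p = 0.0621).

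Antiviral and interferon-related TRIM genes formed the largest role group, with 19 members, of which 15 were tested. All 4 TRIM genes called lower in BBR were in this group (26.7% of the 15, beside 5.04% of all genes tested). Of the 15, 0 were higher past the threshold. Differences were below 0 in 12 and above 0 in 3, Trim6, Trim13 and Trim23, with a median of -0.39, although Trim6 turned below 0 with quantile or median-ratio scaling and Trim14 above 0 with quantile scaling and with array quality weights. The groups did not overlap in 8 of the 15 (53.3%, beside 37.9% of all genes tested), with BBR below SASP in each.

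Trim25 (217069), which attaches ubiquitin chains to RIG-I, was at 42.59, 38.12 and 53.54 FPKM in BBR against 52.45, 43.61 and 43.91 FPKM in SASP mice 1, 2 and 3. The groups overlapped, and the 95% interval of the difference ran from -0.42 to 0.29 on the log2 scale. Trim14, the RING-less adaptor, was at 101.24, 67.52 and 55.29 FPKM in BBR against 78.28, 69.05 and 70.72 FPKM in SASP mice. The BBR mice spread on both sides of the SASP mice, and the interval of -0.51 to 0.50 leaves changes in either direction possible. With array quality weights the difference was 0.42 and passed as higher in BBR (adjusted p = 0.0161). In that fit 59.0% of all genes tested passed. BBR mouse 1, which held the highest Trim14 value, and SASP mouse 3 weighed most in it.

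Further members of the group missed the threshold with all or most BBR mice below the SASP mice. Trim56, a ligase of STING signalling, was at 8.68, 6.37 and 4.85 FPKM in BBR against 12.42, 10.45 and 10.48 FPKM in SASP mice 1, 2 and 3, without overlap (log2 difference -0.69, adjusted p = 0.0686). Trim26, which removes nuclear IRF3, differed by -0.39 (adjusted p = 0.0587), from 25.09 to 28.03 FPKM in BBR against 32.47 to 37.01 FPKM in SASP mice. Both passed with quantile or median-ratio scaling, with array quality weights (59.0% of all genes tested passed there) and without BBR mouse 3 (33.8%). Trim65, a ligase of MDA5, overlapped between the groups, at 1.37 to 1.92 and 1.79 to 2.24 FPKM (-0.21, adjusted p = 0.334).

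Trim23, an unusual member with an ARF GTPase domain, and Trim13, which is anchored in the endoplasmic reticulum, had differences of 0.32 and 0.28 with overlapping groups (adjusted p = 0.280 and 0.264). Trim6, which builds unanchored ubiquitin chains for the kinase IKKε, was level at 9.58 to 9.87 FPKM in BBR against 8.82 to 10.33 FPKM in SASP mice, with an interval of -0.23 to 0.29. Trim38, a ligase that acts on TAB2, stayed under 1 FPKM, at 0.67, 0.77 and 0.51 FPKM in BBR against 0.39, 0.49 and 0.39 FPKM in SASP mice, and was not tested. It was the only untested TRIM gene with all BBR mice above all SASP mice.

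The Trim30, Trim12, Trim34 and Trim5 relatives are neighbours in RefSeq's gene order (GRCm38.p6), in a row that begins with Trim6 and goes on with Trim34a, Trim5, Trim12a, Trim34b, Trim12c, Trim30b, Trim30c, Trim30a and Trim30d. With Trim6 this makes 10 TRIM genes, and among protein-coding genes only Gm38525 lies between them. Of the 10, 7 were tested, and 3 of these were called lower in BBR, Trim34a, Trim12a and Trim30a, where 5.04% of all genes tested were lower.

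Direct neighbours in the row differed in size. Trim30d, next to Trim30a and with the identical promoter window, was at 22.26, 15.62 and 11.16 FPKM in BBR against 35.88, 21.92 and 34.55 FPKM in SASP mice 1, 2 and 3. BBR mouse 1 lay just above SASP mouse 2, so the groups overlapped, and the difference of -0.89 did not pass (SE 0.28, adjusted p = 0.0830). In BBR mice Trim30d was thus the more abundant of the pair, at 16.3 ± 5.59 FPKM against 4.02 ± 1.16 FPKM for Trim30a, whereas in SASP mice they were at 30.8 ± 7.70 and 28.9 ± 9.44 FPKM (SD, n = 3 each). Only 6.53% of the 50-base windows of Trim30a occurred in Trim30d.

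Trim5, with the promoter window of Trim12a, was at 7.39, 4.99 and 8.15 FPKM in BBR against 9.01, 11.63 and 10.57 FPKM in SASP mice, without overlap (-0.56, SE 0.19, adjusted p = 0.0989). Trim12c differed least among the tested Trim5, Trim12 and Trim30 genes, at 13.31 to 14.74 FPKM in BBR against 16.21 to 17.14 FPKM in SASP mice (-0.22, 95% interval -0.45 to 0.0081, adjusted p = 0.168). Trim5 and Trim12c shared 24.7% and 24.2% of their windows with each other, so that reads of this pair may have been divided in error. For Trim12a only 4.46% of the windows occurred in any other gene.

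The untested members of the row were low. Trim30c was at 0.01, 0.04 and 0.02 FPKM in BBR against 0.44, 0.19 and 0.65 FPKM in SASP mice 1, 2 and 3, and Trim30b at 0.28, 0.23 and 0.60 FPKM and 1.14, 0.87 and 1.48 FPKM. In both, every BBR mouse was below every SASP mouse. The BBR values of Trim30c were near the level of a single read, so the size of its difference cannot be read. Trim34b was at 0.81, 1.04 and 0.23 FPKM in BBR against 0.37, 0.59 and 0.21 FPKM in SASP mice, with overlap.

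**Figure D3:**
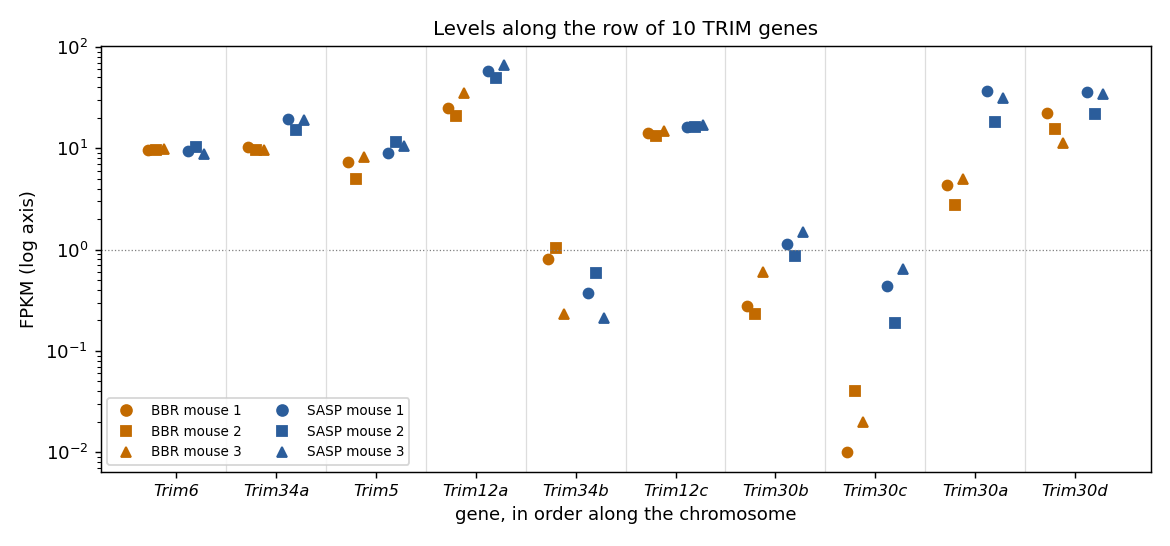
FPKM of the 10 neighbouring TRIM genes (horizontal axis, in RefSeq order) in each mouse on a log axis, with BBR mice in orange, SASP mice in blue and a dotted line at 1 FPKM. Trim30a and Trim30c show the widest gaps between the drugs, but the BBR points of Trim30c lie near the level of a single read. Trim12c shows a narrow gap, and Trim6 and Trim34b overlap.

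Epithelial and mucosal TRIM genes held 9 members, of which 8 were tested and 0 passed the threshold. Of the 8, 3 had an unadjusted p under 0.05 in limma, beside 3837 of 12072 genes tested. Their median difference was -0.56 on the log2 scale, and they ranged from -2.81 for Trim15 to 0.68 for Trim47. In RefSeq's order Trim26, Trim15, Trim10, Trim40 and Trim31 lie side by side with no other protein-coding gene between them, and 4 of the 5 belong to this group. In these 4 genes BBR mouse 3 lay well above the other BBR mice.

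Trim15 (69097) was at 3.52, 4.06 and 108.40 FPKM in BBR against 123.41, 63.71 and 106.83 FPKM in SASP mice 1, 2 and 3. BBR mouse 3 thus lay within the SASP range, while the other BBR mice were far below. The difference of -2.81 had a 95% interval of -5.56 to -0.07 and did not pass (SE 1.16, adjusted p = 0.151).

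Trim40 (195359) was also low in BBR mice 1 and 2 alone, with 30.05, 23.22 and 162.37 FPKM in BBR against 113.39, 109.22 and 142.59 FPKM in SASP mice 1, 2 and 3. In this gene BBR mouse 3 was the highest of all 6 mice. Trim31 (224762) was at 52.20, 44.20 and 115.88 FPKM in BBR against 131.70, 120.63 and 165.95 FPKM in SASP mice, so that BBR mouse 3 stayed just below the lowest SASP mouse. Neither passed, at -1.29 and -1.09 (adjusted p = 0.223 and 0.0872).

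Trim10 (19824) is known from red cell precursors, although it was counted here in the epithelial and mucosal group. Its levels were 0.02, 0.02 and 2.02 FPKM in BBR against 2.53, 1.42 and 1.59 FPKM in SASP mice 1, 2 and 3. At the estimated depth 1 read on its transcript is worth 0.0261 FPKM, so the values of BBR mice 1 and 2 correspond to about a single read. The difference was -0.94 (adjusted p = 0.184). Trim26, at the end of the row, did not share the pattern, since BBR mouse 3 held its lowest value of 25.09 FPKM.

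In 40 of the 12072 genes tested (0.331%), BBR mice 1 and 2 were at least 4 times lower than every other mouse. Trim10 and Trim15 were among them. The pattern was defined from values such as theirs in these same mice, so their presence there is no support. Without BBR mouse 3, whose high values in 4 of these genes are given above, all 5 genes of the row passed the threshold, beside 33.8% of all genes tested in that fit. Leaving out the mouse with the high values narrows the spread by construction, so these calls are no independent support. The log2 differences were -4.32 for Trim15 (adjusted p = 0.000997), -2.15 for Trim40 (0.00125), -1.50 for Trim31 (0.00251), -1.46 for Trim10 (0.00601) and -0.35 for Trim26 (0.0301). In BBR mouse 3 the smooth muscle markers summed to 6505 FPKM, beside 2740 and 2814 FPKM in the other BBR mice. Its sum of epithelial markers, at 4968 FPKM, was the highest of the BBR mice, but single markers differed. Krt20, Krt8 and Cldn7 were highest in BBR mouse 3 among the BBR mice, Epcam and Cdh1 were lowest, and Krt18 and Vil1 lay between. Krt20 was at 284.97, 245.24 and 550.61 FPKM in BBR mice 1, 2 and 3, beside 622.99 to 898.99 FPKM in SASP mice. Epcam was at 1043.5, 982.83 and 943.25 FPKM in BBR mice 1, 2 and 3, beside 833.19 to 1101.1 FPKM in SASP mice. The part of smooth muscle or epithelium in the TRIM values was not tested.

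**Figure D4:**
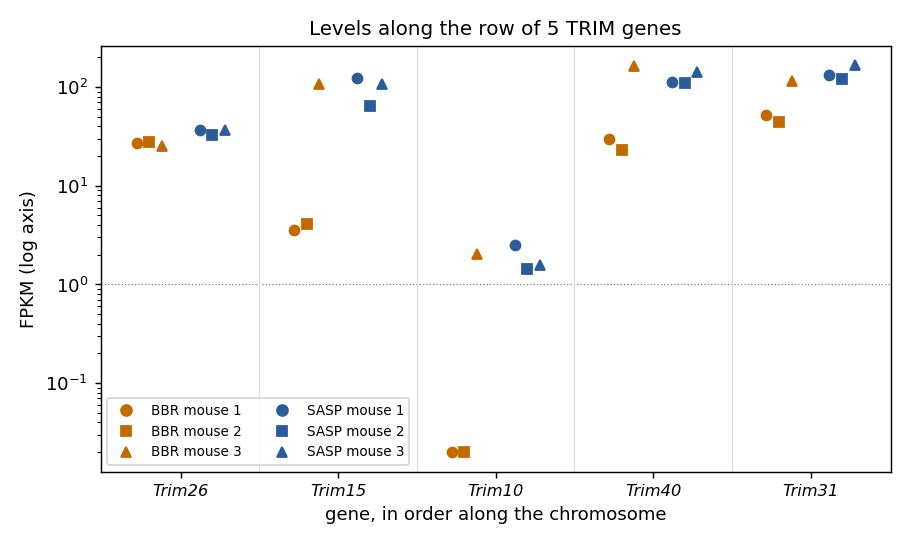
FPKM of the 5 neighbouring TRIM genes Trim26, Trim15, Trim10, Trim40 and Trim31 (horizontal axis, in RefSeq order) in each mouse on a log axis, with BBR mice in orange, SASP mice in blue and a dotted line at 1 FPKM. In Trim15, Trim10 and Trim40 the triangle of BBR mouse 3 lies with the SASP mice, and the other BBR mice lie lower.

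The remaining epithelial members were steadier. Trim47, a ligase described in endothelium and epithelial tumours, came nearest to the threshold, at 2.52, 3.11 and 2.73 FPKM in BBR against 0.96, 1.45 and 1.74 FPKM in SASP mice 1, 2 and 3, with all BBR mice above (0.68, SE 0.17, adjusted p = 0.0515). It passed with quantile or median-ratio scaling, without the variance trend and without BBR mouse 3 (33.8% of all genes tested passed there). It also passed with array quality weights, as did 59.0% of all genes tested. Trim16, which marks damaged lysosomes, overlapped between the groups, at 48.4 ± 11.9 and 35.8 ± 5.08 FPKM (SD, n = 3 each), a difference of 0.40 (adjusted p = 0.213). Trim7 and Trim27 also overlapped, at 0.33 and -0.18. Trim29, a marker of squamous epithelium, was at 0.05 to 0.22 FPKM in the 6 mice and was not tested.

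NHL-repeat TRIM genes, whose C-terminal propeller binds RNA or protein, had differences above 0 in 3 of 3 tested members, beside 7336 of 12072 genes tested. Of the 3, 0 passed the threshold. An unadjusted p under 0.05 in limma was found in 2 of the 3, beside 3837 of 12072 genes tested. Trim2, a ligase of neurofilament light chain, was the most abundant, at 34.25, 25.70 and 22.97 FPKM in BBR against 15.77, 22.07 and 15.44 FPKM in SASP mice 1, 2 and 3. The lowest BBR mouse was just above the highest SASP mouse, and the difference was 0.61 (SE 0.19, adjusted p = 0.0870). Trim3, a brain-rich ligase, and Trim32, a ligase mutated in a limb-girdle muscular dystrophy, differed by 0.42 and 0.39 (adjusted p = 0.137 and 0.237). Trim71, an embryonic stem cell factor, was listed at 0 in all BBR mice and at 0.01, 0.01 and 0 FPKM in SASP mice.

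Among the nuclear members, Trim28, the corepressor that silences retroelements through KRAB zinc finger proteins, was at 22.01, 24.16 and 15.77 FPKM in BBR against 19.94, 25.21 and 22.74 FPKM in SASP mice 1, 2 and 3. The groups overlapped, and the 95% interval of the difference was -0.56 to 0.27. Trim33, which acts with SMAD proteins, overlapped as well, at 5.32 ± 0.809 and 5.12 ± 0.180 FPKM (SD, n = 3 each). Trim24, a cofactor of nuclear receptors, was at 11.93 to 13.37 FPKM in BBR against 9.89 to 11.04 FPKM in SASP mice, without overlap, but its difference of 0.24 did not pass (adjusted p = 0.168). In this group 0 of 3 tested members passed, beside 8.86% of all genes tested. In limma 0 of 3 had an unadjusted p under 0.05, beside 3837 of 12072 genes tested.

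Neuronal and cytoskeletal members were Trim46, which bundles microtubules at the axon initial segment, Trim36, a microtubule-associated ligase, and the nearly silent Trim9 and Trim67. Trim46 was at 8.47, 8.41 and 4.68 FPKM in BBR against 3.96, 3.61 and 4.79 FPKM in SASP mice 1, 2 and 3, so that BBR mouse 3 fell within the SASP range (0.64, adjusted p = 0.107). Trim36 was at 6.18 to 8.47 and 4.33 to 5.55 FPKM, without overlap (0.41, adjusted p = 0.126). Sums of 6 neuron markers were 15.4 to 55.8 FPKM in BBR against 10.4 to 24.1 FPKM in SASP mice, and the part of neurons in these values was not tested.

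Of the muscle TRIM genes, only Trim72 was tested. Trim63 (MuRF1), which marks myosin for breakdown in wasting muscle, and Trim55 (MuRF2) were at 0 to 0.06 and 0 to 0.04 FPKM. Trim72, a membrane repair protein of striated muscle, was at 3.62, 1.69 and 6.26 FPKM in BBR against 4.89, 7.96 and 4.89 FPKM in SASP mice 1, 2 and 3. The groups overlapped (-0.59, adjusted p = 0.294). The 7 skeletal muscle markers summed to 8.19 to 20.2 FPKM in BBR against 7.01 to 11.9 FPKM in SASP mice.

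The other 20 members have mixed roles, and 11 of them were tested. Apart from Trim62, 0 of the other 10 passed, 8 with a difference above 0 and 2 below. Among all 12072 genes tested, 7336 were above 0 and 4734 below. Trim59, a membrane-anchored member that is high in dividing and myeloid cells, was at 3.36, 3.87 and 1.54 FPKM in BBR against 7.22, 7.13 and 5.32 FPKM in SASP mice 1, 2 and 3. Every BBR mouse was below every SASP mouse, but the difference of -0.99 did not pass (SE 0.26, adjusted p = 0.0610). It passed with quantile or median-ratio scaling, with array quality weights (59.0% of all genes tested passed there) and without BBR mouse 3 (33.8%). Trim37, a centrosome regulator, overlapped at -0.29 (adjusted p = 0.362).

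Above 0 were Trim41, at 20.1 ± 3.80 and 14.3 ± 0.924 FPKM, and Trim17, at 2.83 ± 0.488 and 1.80 ± 0.211 FPKM in BBR against SASP mice (SD, n = 3 each), both with all BBR mice above all SASP mice and adjusted p of 0.103 and 0.0946. Trim17 shared 18.3% of its windows with a histone gene next to it. Trim39, a ligase in apoptosis control, also did not overlap, at 10.34 to 12.05 and 8.26 to 9.85 FPKM (0.26, adjusted p = 0.190). Trim11, Trim8, Trim35, Trim44 and Trim68 overlapped, with differences of 0.54, 0.37, 0.34, 0.20 and 0.14.

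The 20 untested members were low. In 9 of them, Trim43a, Trim55, Trim58, Trim60, Trim63, Trim66, Trim71, Trim75 and Trim80, at least 1 mouse was listed at 0, and their highest value was 0.11 FPKM. Trim45 was at 0.51 to 0.74 FPKM in the 6 mice and Trim69 at 0.03 to 0.13 FPKM. Trim55, Trim71 and Trim80 were at 0 in all BBR mice. The Trim43 genes, expressed in early embryos, share up to 48.8% of their windows with other genes, and the highest of them, Trim43b, was at 0.22 to 0.87 FPKM, beside 0.05 to 0.22 FPKM for Trim43c. The groups overlapped in 17 of the 20, the exceptions being Trim30b, Trim30c and Trim38. The share over all untested genes was not computed, so whether this count is few or many cannot be said.

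By domain, all 5 called TRIM genes belonged to the SPRY class, which holds 38 of the 63 members and 26 of the 43 tested ones. Calls were thus made in 19.2% of tested SPRY genes, beside 8.86% of all genes, and the median difference of the class was -0.12.

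Single mice moved the number of calls. Without BBR mouse 3, 23 of the 43 TRIM genes passed (53.5%), 10 higher and 13 lower, beside 33.8% of all genes tested in that fit. All 5 calls were among the 23. The 18 additional genes were Trim2, Trim7, Trim11, Trim16, Trim23, Trim32, Trim41, Trim46 and Trim47 (higher) and Trim5, Trim10, Trim15, Trim26, Trim31, Trim40, Trim56, Trim59 and Trim72 (lower). In contrast, without SASP mouse 3 limma called 0 TRIM genes (12 had an unadjusted p under 0.05) and 51 genes in all. Without BBR mouse 1 or 2 only Trim21 and Trim30a were called, without SASP mouse 1 only Trim30a, and without SASP mouse 2 only Trim30a and Trim34a.

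Genes that TRIM proteins act on or resemble were counted from the same fit. Of 17 genes in RIG-I, MDA5, STING and NF-κB signalling that TRIM proteins modify, 2 were lower past the threshold and 0 higher (11.8%, beside 8.86% of all genes). These were Tmem173, which encodes STING, at 4.68, 4.28 and 5.40 FPKM in BBR against 16.78, 11.74 and 11.10 FPKM in SASP mice 1, 2 and 3 (-1.28, SE 0.18, limma adjusted p = 0.0138), and Ifih1, which encodes MDA5, at 25.0 ± 2.2 and 37.8 ± 5.06 FPKM (SD, n = 3 each; -0.58, adjusted p = 0.0426). In both, all BBR mice were below all SASP mice. In RNA, the Trim30a targets Tab2 and Tab3 differed by 0.21 and 0.02 and did not pass. In Tab2 every BBR mouse was above every SASP mouse, and in Tab3 the groups overlapped. RNA levels do not show a loss of these proteins.

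TRIM proteins that go by other symbols gave 0 of 5 tested genes past the threshold, beside 8.86% of all genes tested. In limma 1 of the 5 had an unadjusted p under 0.05, beside 3837 of 12072 genes tested. Pml, the organiser of nuclear bodies and itself an interferon target, differed by -0.33 (adjusted p = 0.399) with overlapping groups.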

How the data were processed

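RNA sequencing of colorectal tissue from 3 BBR and 3 SASP colitis mice was used, grouped by the treatment label. The authors deposited FPKM values per gene and sample, rounded to 2 decimals. According to the submitters' processing notes, the tools included Bowtie2 2.2.5 and RSEM 1.2.12 and the build was mm9. RSEM divides reads that fit several genes, which leaves close paralogs uncertain. The methods describe rRNA depletion and DNA nanoball sequencing, whereas the labels name an Illumina kit. Gene order and promoters came from RefSeq (GRCm38.p6). Shared windows and transcript lengths were computed from GENCODE M21.

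FPKM are not counts, so log2(FPKM + 1) was compared in limma 3.58.1 (R 4.3.3) with a variance trend over the 12072 genes with at least 1 FPKM in at least 3 samples. P-values were two-sided and Benjamini-Hochberg adjusted over these genes, with a threshold of 0.05. Log2 differences on this scale understate changes of low genes. The fit was tested on simulated data. An exact permutation test of 3 against 3 cannot go below p = 0.10. The labels do not say whether samples were prepared separately, so p-values measure the spread between these samples. No pair of samples held identical values in more than 0.389% of tested genes. Approximate depth came from short genes seen in a single sample, whose typical value was taken as 1 read (31 to 56 genes a sample).

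TRIM genes past the threshold were given with every value, others with means, ranges or differences. Role groups were assigned from general knowledge. The members and lists were chosen with earlier results of these data known. Alternatives were 2 filters, a pseudocount of 0.1, 2 scalings, no variance trend, array quality weights and each mouse left out.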

Additional observations from a re-analysis of the deposited data

How the results depend on the processing

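No paired analysis was possible because the labels give the mice no shared replicate numbers across the groups. The TRIM count of 5 was 4, with 0 higher, both with no filter and under the stricter filter on the mean (5 FPKM), 5 with a pseudocount of 0.1, 9 (2 higher, 7 lower) with quantile and with median-ratio scaling, 6 without the variance trend (2 higher) and 33 (16 higher, 17 lower) with array weights. Leaving out each mouse gave 0 to 23 calls, of which 0 to 10 were higher and 0 to 13 lower. For all genes the count of 1069 was 591 with no filter, 1737 with quantile scaling, 1683 with median-ratio scaling and 7126 with array weights, and 51 to 4018 with a mouse left out. Array weights gave BBR mouse 3 a weight of 0.129, the lowest of the 6. Most weight went to BBR mouse 1 (5.32) and SASP mouse 3 (4.85), and the rest had 0.589 to 0.746. The counts with array weights thus rest largely on BBR mouse 1 and SASP mouse 3. The TRIM median of 0.03 was -0.105 with the mean filter, -0.09 with median-ratio scaling and -0.016 to 0.149 with a mouse left out. Median-ratio scaling moved the median of all genes by -0.117, and 29.7% of its calls were higher in BBR against 43.1%, and array weights gave 65.1%. Of 544 results for single genes, 455 kept direction and call, 54 gained a call, 19 lost one and 16 in 6 genes turned in sign. Trim14 was 0.043 with quantile scaling and 0.425 with array weights (adjusted p = 0.0161), and -0.245 to 0.186 with a mouse left out. Trim33 was -0.06 and -0.074 with quantile and median-ratio scaling and -0.03 to 0.149 with a mouse left out, and Trim6 was -0.028 and -0.09 and -0.016 to 0.087. Trim25 and Trim28 ranged from -0.202 to 0.038 and from -0.26 to 0.032 with a mouse left out, and Trim35 was -0.005 with array weights. The cause of these changes was not tested. Genes near 0.02 FPKM rest on about 1 read, so no difference could be read there.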

Other observations

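Of 9 tested genes of ubiquitin-conjugating (E2) enzymes and E2 variants that serve TRIM ligases, 0 passed the threshold, beside 8.86% of all genes tested. In limma 4 of the 9 had an unadjusted p under 0.05, beside 3837 of 12072 genes tested. The groups did not overlap in 5 of the 9 (55.6%, beside 37.9% of all genes tested), with BBR below SASP in 4 and above in 1. Their sum was 293 to 320 FPKM in BBR against 322 to 336 FPKM in SASP mice. Ube2d3, the most abundant, was at 72.62, 77.25 and 74.44 FPKM in BBR against 88.26, 91.38 and 95.89 FPKM in SASP mice 1, 2 and 3, without overlap (log2 difference -0.29, adjusted p = 0.0799).

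Partners of Trim28 in gene silencing gave 0 of 9 past the threshold, beside 8.86% of all genes tested. In limma 3 of the 9 had an unadjusted p under 0.05, beside 3837 of 12072 genes tested. The groups did not overlap in 4 of the 9 (44.4%, beside 37.9% of all genes tested), with BBR below SASP in 2 and above in 2. The largest difference was in Chd3, a chromatin remodeller of the NuRD complex, at 18.87, 25.16 and 14.48 FPKM in BBR against 7.39, 13.40 and 10.18 FPKM in SASP mice 1, 2 and 3 (0.86, SE 0.25, adjusted p = 0.0750). Every BBR mouse was above every SASP mouse. Setdb1, the histone methyltransferase recruited by Trim28, differed by 0.08. Of these partners, Chd3 and Ube2d3 were named after their values were seen.

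Macrophage markers summed to 105 to 166 FPKM in BBR against 162 to 183 FPKM in SASP mice. Of the 7, 0 passed the threshold, beside 8.86% of all genes tested. In limma 1 of the 7 had an unadjusted p under 0.05, beside 3837 of 12072 genes tested. B cell markers summed to 1.03 to 2.60 and 5.17 to 32.3 FPKM, without overlap. Of the 2 tested, 1 (Cd79b) was lower in BBR past the threshold, beside 5.04% of all genes tested. T cell markers summed to 4.55 to 6.63 and 3.44 to 7.86 FPKM, and squamous epithelial markers to 0.59 to 2.73 and 0.91 to 1.47 FPKM. The part of these cells in the TRIM values was not tested.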
